A study of Mus musculus with 9 samples.

Results

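Expression in L8057 cells carrying a knockdown hairpin, against either CBFb (CBFb_KD) or Ring1b (Ring1b_KD), was set against expression in cells carrying an empty vector (Control). The knockdown side was the mean of the CBFb_KD and Ring1b_KD group means, from 6 arrays, and the Control side was the mean of 3 arrays, so that all 9 arrays of the series entered the comparison. The difference between the sides is called the pooled contrast here, and its question is which transcripts responded alike to both knockdowns. L8057 is a mouse megakaryocytic line that matures on treatment with a phorbol ester. The cells of every group were infected with lentivirus, and received puromycin together with 50 nM of the phorbol ester TPA 48 h later. RNA was taken after a further 72 h, which was 3 days of TPA, so no untreated or immature state enters the comparison. The submitters describe the 3 arrays of a group as biological triplicates, and whether the cultures were infected separately is not said, so p-values measure only the spread between these arrays. How many hairpins were used per gene is not given in the sources used here. The Control vector carried no hairpin, whereas both knockdowns did. A response to any hairpin and a response to lower CBFb or Ring1b therefore cannot be told apart in the pooled contrast.

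CBFb is the subunit of the core binding factors that does not touch DNA itself and stabilises the binding of its RUNX partners, among them RUNX1, a regulator of megakaryocyte maturation. Ring1b, the product of Rnf2, is the ubiquitin ligase of Polycomb repressive complex 1 (PRC1), which marks histone H2A at repressed genes. Maturing megakaryocytes leave the division cycle, copy their genomes without dividing and load platelet proteins into granules. Short hairpins enter the microRNA pathway, where Dicer, its partners and Argonaute proteins process and use them.

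Values were log2 signals of single-colour oligonucleotide arrays, and each of 18193 genes was read from 1 probe set, the brightest on average among those annotated with that symbol alone. Array medians as deposited lay between 6.514 and 6.651, with the Ring1b_KD arrays highest, and the values were quantile normalized before the tests. Correlations over probe sets were 0.9947 to 0.9973 within groups, 0.9881 to 0.9931 between CBFb_KD and Control, and 0.9915 to 0.9937 between Ring1b_KD and Control. Between CBFb_KD and Ring1b_KD they were 0.9866 to 0.992, the lowest range. The number of arrays limits the precision, and the median standard error of a pooled log2 fold change was 0.0771. Percentiles among all genes in Control, which set signals of different probe sets side by side and so do not rank RNA levels, placed the megakaryocyte genes Pf4 at 99.8, Gata1 at 95.8, Itga2b at 93.5 and Gp1bb at 53.9. The erythroid factor gene Klf1 was at 91.5 and the mast cell protease gene Cpa3 at 82.4. Of markers of other cell types, Elane was at 47.8, Cd3e at 55.1, Mpo at 31.1, Pdgfrb at 31.7, Col1a1 at 25.7 and Cdh5 at 13.8. The 3' minus 5' signal of the transferrin receptor control probe sets, a measure of RNA length, averaged 1.254 in CBFb_KD, 1.319 in Ring1b_KD and 1.458 in Control on the log2 scale, and its part in the results was not tested. Ring1b_KD array 3, at 1.495, lay within the Control range of 1.423 to 1.517. The same measure averaged 0.088, 0.087 and 0.114 for beta-actin and 0.052, -0.011 and 0.035 for Gapdh, in the same order.

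Each targeted gene was low in the group labelled for it and near Control in the other. Cbfb was at 9.32, 9.14 and 9.12 in CBFb_KD, at 12.16, 12.26 and 12.29 in Ring1b_KD and at 12.27, 12.33 and 12.50 in Control, with -3.17 after CBFb and -0.13 after Ring1b knockdown. Rnf2 was at 10.55, 10.52 and 10.57 in CBFb_KD, at 9.08, 8.96 and 8.92 in Ring1b_KD and at 10.56, 10.68 and 10.72 in Control, with -0.10 after CBFb and -1.67 after Ring1b knockdown. The knockdown arrays of the targeting group lay below every other array for both genes. Both genes passed the pooled test (log2 fold changes of -1.65 and -0.89) although a single knockdown moved each.

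The knockdown side differed from Control for 2293 of 18193 genes (12.6%) by limma at an adjusted p under 0.05, of which 1058 were higher (5.82%) and 1235 lower (6.79%). Calls of at least 2-fold were mostly increases, 60 against 9 decreases, while the median log2 change over all genes was -0.0012. A pooled mean can come from a single knockdown, so a common response was defined by 3 conditions. The gene had to be called in the pooled contrast, all 6 knockdown arrays had to lie beyond all 3 Control arrays on the same side, and the smaller of the CBFb_KD and Ring1b_KD changes had to be at least 0.5 times the larger and of the same sign. This held for 1059 genes (5.82% of all tested), 445 higher (2.45%) and 614 lower (3.37%). Irrespective of any test, the 6 knockdown arrays lay beyond the 3 Control arrays for 2004 genes (11%), above for 861 (4.73%) and below for 1143 (6.28%). Common genes changed by a median of 0.397 on the log2 scale in either direction, and 35 of them reached 2-fold, 30 higher and 5 lower.

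The pooled contrast and the contrast between the knockdowns can be tested side by side. The difference between the knockdowns does not use the Control mean. Its standard error does draw on the Control arrays, since all 9 arrays share an estimate of the spread. CBFb_KD and Ring1b_KD differed from each other for 3536 genes (19.4%), 1843 higher in CBFb_KD (10.1%) and 1693 lower (9.31%). Both tests called 1023 genes (5.62%), 518 with a higher pooled value (2.85%) and 505 with a lower (2.78%). Of the 1059 common genes, 61 also differed between the knockdowns, a number that the rule on the smaller change holds down. Outside the common class, 962 pooled calls had unequal changes, the larger in CBFb_KD for 650 and in Ring1b_KD for 312. The knockdowns had opposite signs for 152 of these 962. The remaining 272 pooled calls met neither definition. The pooled calls therefore held 46.2% common genes and 42% genes with unequal changes. Each knockdown against the same 3 Control arrays gave 2798 calls (15.4%) in CBFb_KD, 1416 higher (7.78%) and 1382 lower (7.6%). Ring1b_KD gave 2225 (12.2%), 1029 higher (5.66%) and 1196 lower (6.57%). Since both share those arrays, a deviation of Control appears in both.

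**Figure D1:**
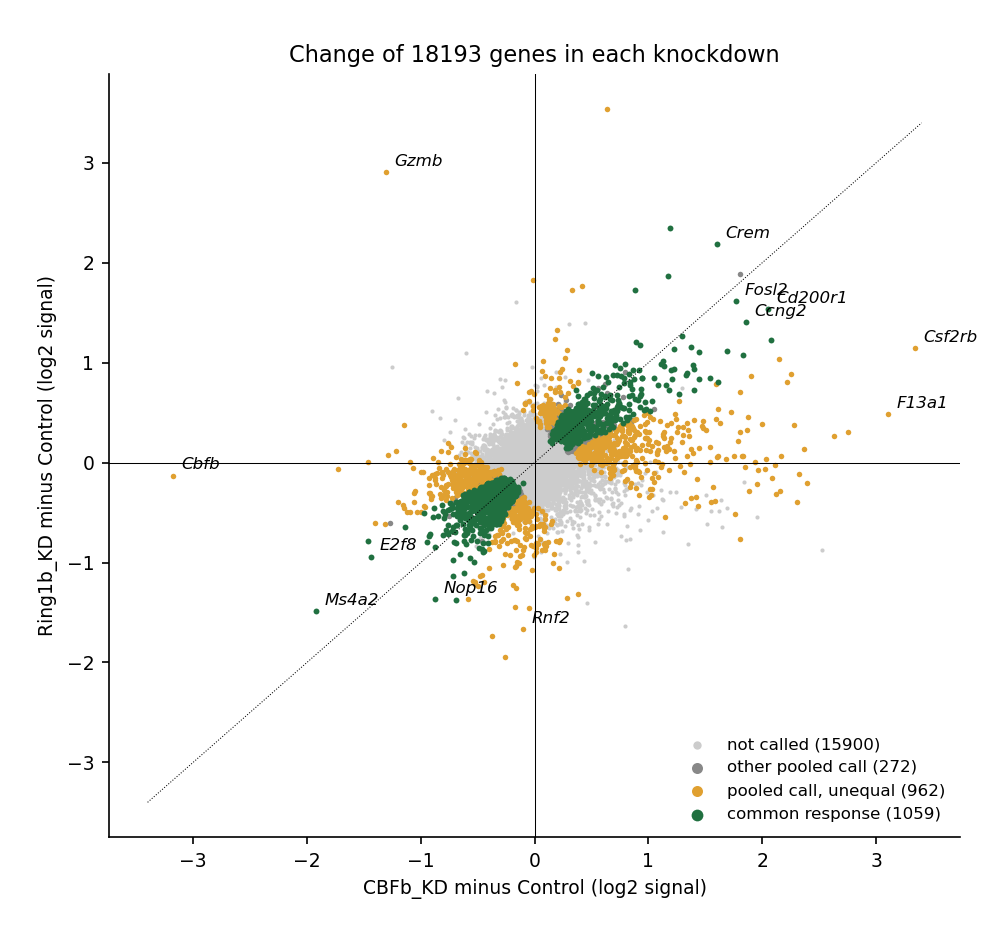
Change of each of 18193 genes in CBFb_KD (horizontal axis) and Ring1b_KD (vertical axis) against the same 3 Control arrays, in log2 signal, coloured by class. The 1059 common genes lie on either side of the dotted line of equal change, as the rule requires, Cbfb and Rnf2 lie beside the axes, and Gzmb is at -1.30 and 2.90.

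The leading common increases are described one by one. Fosl2, a subunit of the AP-1 factor that phorbol ester induces, stood at 9.85, 11.14 and 9.99 in CBFb_KD, at 9.87, 10.35 and 10.31 in Ring1b_KD and at 8.27, 9.28 and 8.12 in Control (log2 signal). All 6 knockdown arrays were above the 3 Control arrays, as the rule for common genes requires, and array 2 was the highest in each group. The pooled increase was 3.23-fold (log2 fold change 1.69 with SE 0.28, limma adjusted p = 0.00197), with 1.77 after CBFb and 1.62 after Ring1b knockdown. The knockdowns differed by 0.15, with a 95% interval of -0.55 to 0.85. A dimmer Fosl2 probe set gave 0.65 and was not called (limma adjusted p = 0.0711 over all probe sets).

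Crem, which encodes a cyclic AMP-responsive factor and its early repressor, was at 8.64, 10.49 and 8.94 in CBFb_KD, at 9.86, 9.99 and 9.95 in Ring1b_KD and at 7.58, 8.43 and 7.24 in Control. All 6 knockdown arrays were above Control, as the rule requires. CBFb_KD spread more widely than Ring1b_KD, whose arrays had an SD of 0.07 and lay within the CBFb_KD range. Its pooled increase was 3.72-fold (log2 fold change 1.90 with SE 0.33, limma adjusted p = 0.00273). Another Crem probe set rose by 1.46, while the 2 dim ones, at mean levels of 3.73 and 4.83, gave -0.0034 and -0.06, neither called. Ccng2, a cyclin gene of resting cells, was at 10.17, 11.13 and 10.46 in CBFb_KD, at 10.16, 10.39 and 9.86 in Ring1b_KD and at 8.96, 9.06 and 8.16 in Control, a 3.1-fold increase (log2 fold change 1.63 with SE 0.22, limma adjusted p = 0.000539), and its other probe set gave 1.41. Txnip, which encodes an inhibitor of thioredoxin and of glucose uptake, was at 10.73, 11.10 and 10.61 in CBFb_KD, at 11.15, 10.82 and 10.40 in Ring1b_KD and at 9.67, 9.62 and 9.28 in Control. Its changes were nearly equal in size, 1.29 after CBFb and 1.27 after Ring1b knockdown, with a difference of 0.02 and a 95% interval of -0.35 to 0.40.

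Cd200r1, an inhibitory receptor of myeloid and mast cells, was at 9.06, 9.70 and 9.53 in CBFb_KD, at 9.08, 8.92 and 8.76 in Ring1b_KD and at 7.32, 7.63 and 7.19 in Control, a 3.47-fold increase (log2 fold change 1.79 with SE 0.14, limma adjusted p = 1.22e-05). Its rise was larger in CBFb_KD, by 0.51 (limma adjusted p = 0.0371). Ccrl2, an atypical chemoattractant receptor, rose 3.15-fold, and Sla2, an adaptor that dampens antigen receptor signals, rose 2.27-fold. The CBFb_KD rise was the larger in both, by 0.84 for Ccrl2 and 0.41 for Sla2 (limma adjusted p = 0.0469 and 0.0488). St8sia4, which encodes a polysialyltransferase, went the other way, with 1.19 after CBFb and 2.35 after Ring1b knockdown and a difference of -1.16 (limma adjusted p = 0.0164). Its Ring1b_KD arrays were at 9.97, 10.01 and 9.97, above all CBFb_KD arrays, which ran from 8.46 to 9.43. The Control arrays of St8sia4 were spread widely, at 7.67, 8.35 and 6.88.

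Dgat1, the enzyme of the last step of triglyceride synthesis, was at 10.93, 11.84 and 11.54 in CBFb_KD, at 11.97, 12.37 and 12.06 in Ring1b_KD and at 10.07, 10.76 and 9.96 in Control (log2 fold change 1.52 with SE 0.19, limma adjusted p = 0.000471). Rab27b, a small GTPase needed for the release of platelet and mast cell granules, was at 11.31, 11.89 and 11.65 in CBFb_KD, at 11.47, 11.56 and 11.19 in Ring1b_KD and at 10.36, 10.62 and 9.76 in Control (log2 fold change 1.27 with SE 0.17, limma adjusted p = 0.000528). Of its 3 other probe sets, those at 1.24 and 1.35 were called and the dimmest, at 0.11, was not. Mest, an imprinted gene of the hydrolase fold family, had narrow Control values of 8.70, 8.64 and 8.63. It rose by 1.40, more in CBFb_KD than in Ring1b_KD (1.69 after CBFb and 1.11 after Ring1b knockdown, difference adjusted p = 0.00839 by limma). Tex2 (1.18), Ctla2b (1.45) and Fam214b (1.07) rose as well, each by more than 2-fold. Hdc, which makes histamine from histidine, was at 8.17, 9.39 and 8.14 in CBFb_KD, at 8.34, 8.31 and 8.67 in Ring1b_KD and at 7.53, 7.44 and 7.40 in Control, and rose by 1.05 (limma adjusted p = 0.00681). A dimmer Hdc probe set rose by 2.03.

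**Figure D2:**
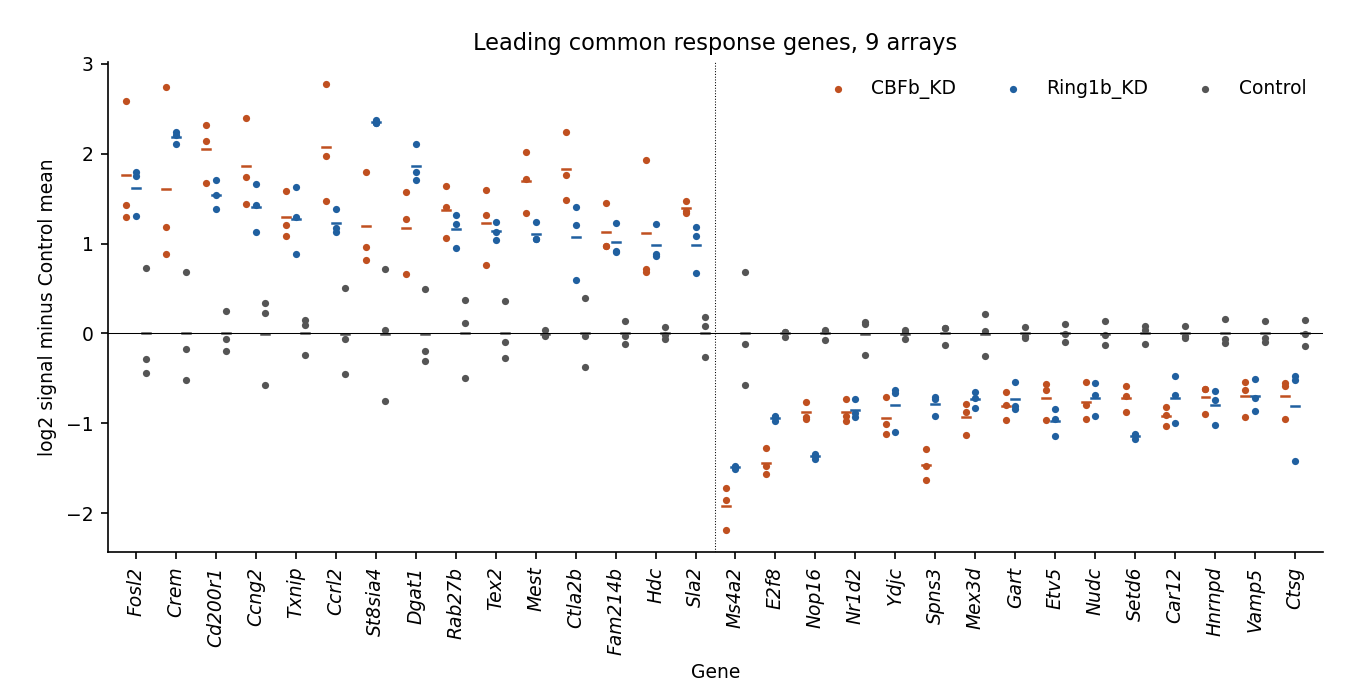
Leading common genes by the smaller of their changes in CBFb_KD and Ring1b_KD, 15 higher and 15 lower, as log2 signal minus the Control mean; points are single arrays and short bars are group means of 3. Knockdown arrays lie on one side of Control for every gene, as the rule requires, and St8sia4, Ms4a2, Fosl2 and Crem show wide Control values.

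The largest decrease common to both knockdowns was of Ms4a2, which encodes the beta chain of the high-affinity IgE receptor of mast cells and basophils. Its signal was at 6.28, 6.14 and 5.81 in CBFb_KD, at 6.52, 6.50 and 6.49 in Ring1b_KD and at 8.68, 7.42 and 7.88 in Control. The Control arrays were spread widely, and all lay above the 6 knockdown arrays. The pooled decrease was 3.25-fold (log2 fold change -1.70 with SE 0.20, limma adjusted p = 0.000292), and a second probe set fell by 0.86 (limma adjusted p = 0.0418 over all probe sets). Its difference between the knockdowns was -0.43 (95% interval -0.93 to 0.07). Fcer1a, the alpha chain of the same receptor, was not called, at 5.811 in CBFb_KD, 7.586 in Ring1b_KD and 5.977 in Control (group means, pooled limma adjusted p = 0.0951). In these bulk samples, fewer cells of a type and less RNA per cell cannot be told apart. The 250 bases before the Ms4a2 start are shown because a factor of the mast cell and megakaryocyte lineages, GATA, has its core motif AGATAA in them at 3 places, in capitals (TTATCT on the shown strand is the match on the other strand). The sequence is RefSeq's for GRCm38.p6, minus strand, chr19:11623720-11623969, and the matches end 219, 32 and 6 bases before the start. Of all promoters searched, 8.09% held AGATAA.
Ms4a2: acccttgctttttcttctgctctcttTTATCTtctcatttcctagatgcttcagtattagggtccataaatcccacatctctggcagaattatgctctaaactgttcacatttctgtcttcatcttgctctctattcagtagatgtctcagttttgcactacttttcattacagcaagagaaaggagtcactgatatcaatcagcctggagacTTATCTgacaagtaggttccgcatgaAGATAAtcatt

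E2f8 and Nop16 had the smallest adjusted p among the leading common decreases. E2f8, an atypical E2F factor that represses genes of the S phase and promotes genome duplication without division, was at 9.74, 9.45 and 9.53 in CBFb_KD, at 10.09, 10.08 and 10.04 in Ring1b_KD and at 11.03, 10.97 and 11.03 in Control. Control arrays had an SD of 0.03 and all lay above the knockdown arrays, and the decrease was 2.28-fold (log2 fold change -1.19 with SE 0.07, limma adjusted p = 3.32e-06). It was larger in CBFb_KD, with -1.44 after CBFb and -0.94 after Ring1b knockdown and a difference of -0.50 (limma adjusted p = 0.00114). A second probe set fell by 0.91. Nop16, a nucleolar protein of the large ribosomal subunit pathway, is described with its group. Nr1d2, which encodes the clock repressor REV-ERB beta, fell by nearly the same amount in both, with -0.87 after CBFb and -0.85 after Ring1b knockdown, from 8.68, 9.05 and 9.03 in Control. The difference between the knockdowns was -0.02, with a 95% interval of -0.26 to 0.22.

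Gart, which encodes a trifunctional enzyme of purine synthesis, was at 10.78, 10.47 and 10.63 in CBFb_KD, at 10.60, 10.63 and 10.90 in Ring1b_KD and at 11.41, 11.39 and 11.51 in Control, and fell by 0.77 on the log2 scale (limma adjusted p = 0.0002). All of its 3 other probe sets fell as well, by 0.52 to 0.80. Etv5, an ETS factor, fell by 0.85, and both of its other probe sets by 0.66 and 0.67. Hnrnpd, an RNA-binding protein that hastens decay of AU-rich messages, had log2 fold changes of -0.71 after CBFb and -0.80 after Ring1b knockdown, and Nudc, a dynein-associated chaperone, of -0.76 after CBFb and -0.72 after Ring1b knockdown. Vamp5 (-0.70 after CBFb and -0.70 after Ring1b knockdown) and Car12, a membrane carbonic anhydrase (-0.92 after CBFb and -0.71 after Ring1b knockdown), fell in both. Spns3 had a pooled change of -1.12 and fell more in CBFb_KD, by -0.68, while Setd6, a lysine methyltransferase, had a pooled change of -0.93 and fell more in Ring1b_KD, by 0.42 (differences are CBFb_KD minus Ring1b_KD, limma adjusted p = 0.000516 and 0.00567). Ydjc (-0.87) and Mex3d (-0.83) also fell. Ctsg, a granule protease, fell by 0.75 (limma adjusted p = 0.0144), with 1 Ring1b_KD array at 8.54 and the other knockdown arrays at 9.49 or lower. It lost its call in 3 of the settings tried.

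Genes of ribosome assembly fell together in both knockdowns and had the largest share of common genes among the 30 lists described (56.7%). Of 30 measured members 22 were called lower and 0 higher in the pooled contrast, where 6.79% of all genes were lower, and 17 of the 30 were common. Their median log2 change was -0.431, against -0.0012 over all genes, with -0.465 in CBFb_KD and -0.324 in Ring1b_KD. Against Control, 28 members were lower in CBFb_KD and 17 in Ring1b_KD, where 7.6% and 6.57% of all genes were. Nop16 was at 9.50, 9.34 and 9.32 in CBFb_KD, at 8.90, 8.87 and 8.93 in Ring1b_KD and at 10.31, 10.19 and 10.30 in Control. The groups were widely apart, and the decrease was larger in Ring1b_KD (-0.88 after CBFb and -1.37 after Ring1b knockdown, difference 0.49, limma adjusted p = 0.00087). A second, dim Nop16 probe set gave -0.24 and was not called.

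Members of the box C/D machinery, which guides methylation of ribosomal RNA, fell in both knockdowns. Fbl, the methyltransferase fibrillarin, was at 12.24, 12.04 and 12.10 in CBFb_KD, at 12.002, 12.26 and 12.44 in Ring1b_KD and at 12.80, 12.70 and 12.77 in Control (log2 fold change -0.58 with SE 0.08, limma adjusted p = 0.000927). Its partner gene Nop56 was at 10.87, 10.67 and 10.77 in CBFb_KD, at 10.71, 10.80 and 10.98 in Ring1b_KD and at 11.20, 11.37 and 11.39 in Control (log2 fold change -0.52 with SE 0.08, limma adjusted p = 0.00111). Knockdown arrays of both lay below all Control arrays, and Ring1b_KD array 3 was the nearest to Control in each. Ddx21, an RNA helicase of ribosomal RNA transcription and processing, was at 10.29, 10.25 and 10.37 in CBFb_KD, at 10.32, 10.38 and 10.60 in Ring1b_KD and at 10.95, 10.98 and 10.99 in Control (log2 fold change -0.60 with SE 0.07, limma adjusted p = 0.000325). The other common members, named after their values were seen, included Nop58 (-0.52), Rrp12 (-0.55), Ncl, the gene of nucleolin (-0.46), and Npm1, the gene of nucleophosmin (-0.28).

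Not every member was equal in the knockdowns. Naf1, an assembly factor of box H/ACA particles, had log2 fold changes of -1.46 after CBFb and 0.00 after Ring1b knockdown, and differed between them by -1.47 (limma adjusted p = 9.13e-06). Utp20, Wdr12, Wdr75 and Dkc1 also changed more in CBFb_KD, and each passed the limma test between the knockdowns (adjusted p from 0.00496 to 0.0391). The 8 members without a pooled call had log2 changes from -0.32 for Nhp2 to -0.06 for Noc4l, and Noc4l stood at -0.37 after CBFb and 0.25 after Ring1b knockdown. In the Ring1b_KD group, array 3 had a median deviation from Control of -0.156 over the list, against -0.435 in each of the other 2 arrays. The CBFb_KD arrays had -0.348, -0.617 and -0.467. The count of lower members was 16 without Control array 3, 25 without Ring1b_KD array 3, 28 with median centring and 12 when the 6 knockdown arrays were treated as a single group.

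**Figure D3:**
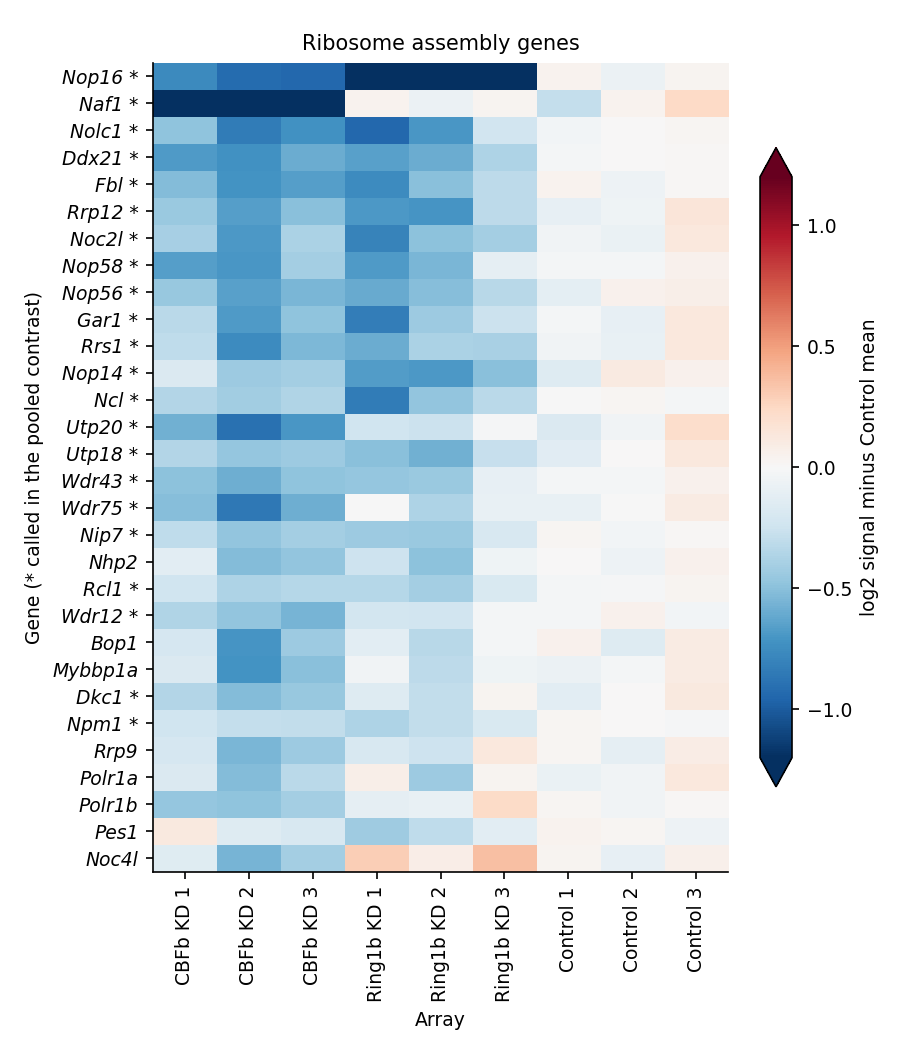
Log2 signal minus the Control mean for the 30 ribosome assembly genes (rows) in each of the 9 arrays (columns), with asterisks at the 22 genes called in the pooled contrast; the colour scale ends at 1.2 in both directions. Nop16 is dark in all 6 knockdown arrays, Naf1 only in CBFb_KD, and Ring1b_KD array 3 is the palest knockdown column.

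Promoters of this group are shown for Utp18, Nolc1 and Gar1, common members chosen because their promoters hold motifs that were searched for. The log2 fold changes of these genes were -0.43, -0.65 and -0.50. Capitals mark the ETS motif CCGGAAG and, in Utp18, the E-box CACGTG, which MYC and related factors bind. In Gar1 the ETS match is on the other strand. The sequences are the 250 bases before each start, from RefSeq for GRCm38.p6, at chr11:93885767-93886016 (minus strand), chr19:46075597-46075846 (plus strand) and chr3:129831397-129831646 (minus strand).
Utp18: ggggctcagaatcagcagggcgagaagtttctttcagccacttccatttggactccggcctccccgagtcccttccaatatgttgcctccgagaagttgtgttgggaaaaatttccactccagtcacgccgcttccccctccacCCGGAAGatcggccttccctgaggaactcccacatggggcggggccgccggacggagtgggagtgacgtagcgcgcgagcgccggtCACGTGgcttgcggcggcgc
Nolc1: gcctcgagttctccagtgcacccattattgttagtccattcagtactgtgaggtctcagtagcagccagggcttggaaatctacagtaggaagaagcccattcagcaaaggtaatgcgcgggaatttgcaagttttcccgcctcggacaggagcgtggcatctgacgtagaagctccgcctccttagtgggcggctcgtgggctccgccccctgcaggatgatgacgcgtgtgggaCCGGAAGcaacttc
Gar1: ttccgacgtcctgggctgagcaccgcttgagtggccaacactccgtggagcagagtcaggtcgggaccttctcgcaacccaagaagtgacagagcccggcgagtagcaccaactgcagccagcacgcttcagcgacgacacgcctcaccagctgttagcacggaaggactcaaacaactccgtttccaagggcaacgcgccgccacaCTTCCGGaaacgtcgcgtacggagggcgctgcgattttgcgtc
The ETS match ends 100 bases before the start in Utp18, 8 in Nolc1 and 37 in Gar1, and the Utp18 E-box ends 15 bases before it. Motifs were searched on both strands from 250 bases before to 50 after each start. CCGGAAG was in 25.9% of 27 promoters of the group, in 23.1% of 575 promoters of common lower genes, in 17.2% of 513 promoters of common higher genes and in 13% of all 18109 promoters. CACGTG was in 18.5%, 13.2%, 9.94% and 8.72% of them, in the same order. The RUNX core TGTGGT was in 9.91% of common lower and 13.6% of common higher promoters, against 13.7% of all. AGATAA was in 5.04% and 7.02%, against 8.09%. These shares are a description with no test, base composition was not matched, and a match does not show that a factor binds there.

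Genes of protein synthesis and growth outside the ribosome were described as well. Of 18 aminoacyl-tRNA synthetase genes, whose products charge transfer RNAs for protein synthesis, 5 were lower and 0 higher, 4 of them common, with a median log2 change of -0.227. That is 27.8% called and 22.2% common, where 6.79% of all genes were lower and 3.37% common lower. Eprs was at 11.23, 11.10 and 11.29 in CBFb_KD, at 10.89, 10.96 and 11.13 in Ring1b_KD and at 11.55, 11.54 and 11.54 in Control (log2 fold change -0.45 with SE 0.07, limma adjusted p = 0.00124), and Gars fell by 0.40 (limma adjusted p = 0.00344). Tars and Iars fell by 0.39 and 0.31. The number of lower synthetase genes was 2 without Control array 2 or Control array 3, 12 with median centring and 11 with the values as deposited. Among enzymes of mitochondrial folate metabolism, Shmt2 (log2 fold changes of -0.61 after CBFb and -0.31 after Ring1b knockdown) and Mthfd2 (-0.30 after CBFb and -0.79 after Ring1b knockdown) fell, Mthfd2 more in Ring1b_KD (difference 0.49, limma adjusted p = 0.00212). Myc, whose product drives many genes of ribosome production, was at 11.09, 11.14 and 11.20 in CBFb_KD, at 11.42, 11.45 and 11.40 in Ring1b_KD and at 11.80, 11.81 and 12.05 in Control (log2 fold change -0.60 with SE 0.07, limma adjusted p = 0.000234). All knockdown arrays lay below Control, and the decrease was larger in CBFb_KD (-0.28, limma adjusted p = 0.0239).

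Genes of the division cycle fell in the pooled contrast, with larger changes in CBFb_KD. Of 30 mitotic genes 19 were lower and 0 higher, of which 5 were common and 11 also differed between the knockdowns, with medians of -0.527 in CBFb_KD and -0.170 in Ring1b_KD. The calls made up 63.3% of the list and the common genes 16.7%, against 6.79% and 3.37% of all genes in that direction. Mki67, a marker of cycling cells, was at 11.24, 11.17 and 11.13 in CBFb_KD, at 11.23, 11.48 and 11.65 in Ring1b_KD and at 11.95, 11.77 and 11.99 in Control, and was common (log2 fold change -0.59 with SE 0.09, limma adjusted p = 0.000952). Mad2l1, of the spindle checkpoint, fell by 0.80 in CBFb_KD and by 0.27 in Ring1b_KD (difference -0.53, limma adjusted p = 0.000621). The kinetochore genes Cenpe and Nuf2 also fell more in CBFb_KD, by differences of -0.47 and -0.37. With the arrays centred on their medians, 26 mitotic genes were lower and 19 were common, so how many count as common depends on the scaling. Without Control array 3 the number of lower members was 9, and with the 6 knockdown arrays as a single group it was 2.

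Of 32 DNA replication genes 17 were lower and 0 higher, 5 common, with medians of -0.499 in CBFb_KD and -0.139 in Ring1b_KD. The shares were 53.1% called and 15.6% common, again beside 6.79% and 3.37%. Uhrf1, which guides maintenance methylation of DNA, had log2 fold changes of -1.03 after CBFb and -0.49 after Ring1b knockdown. The helicase genes Mcm4 (-0.57 after CBFb and -0.30 after Ring1b knockdown), Mcm6 (-0.59 after CBFb and -0.21 after Ring1b knockdown) and Mcm7 (-0.70 after CBFb and -0.16 after Ring1b knockdown) each differed between the knockdowns by limma. The list had 7 lower members without Control array 3, 9 without Control array 2, 10 without Control array 1 and 0 with the knockdown arrays as a single group. Among 24 cyclins, E2F factors and pocket proteins, 7 were lower and 5 higher (50% called, against 12.6% of all genes), and 8 were common (33.3%, against 5.82%). With the arrays centred on their medians 9 were lower and 1 higher. Cdk6, a kinase partner of D-type cyclins, fell from 13.38, 13.29 and 13.36 in Control to 12.20, 12.04 and 12.19 in CBFb_KD and 12.86, 13.01 and 12.96 in Ring1b_KD, unequally (-0.80, limma adjusted p = 7.55e-06). Ccne2, an activator of Cdk2 at the start of the S phase, fell in both (-0.65 after CBFb and -0.92 after Ring1b knockdown). Of 26 Cdk inhibitors and p53 targets 5 were higher and 2 lower (26.9%, against 12.6%). The inhibitor gene Cdkn2b rose mainly in CBFb_KD (1.54 after CBFb and 0.15 after Ring1b knockdown) and Cdkn1b mainly in Ring1b_KD (0.31 after CBFb and 0.81 after Ring1b knockdown). The p53 targets Trp53inp1 (1.72 after CBFb and 0.51 after Ring1b knockdown) and Zmat3 (-0.93 after CBFb and -0.16 after Ring1b knockdown) changed more in CBFb_KD, in opposite directions. Each of these 4 genes differed between the knockdowns by limma.

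Interferon response genes rose in the pooled contrast, while their share of common genes was near that of all genes. Of 34 members 12 were higher (35.3%) and 0 lower, where 5.82% of all genes were higher. Common members made up 2.94% of the list, where 2.45% of all genes were common and higher. Only Stat2, a subunit of the interferon-activated factor, was common (0.39 after CBFb and 0.49 after Ring1b knockdown, named after its values were seen), and the other 11 differed between the knockdowns. The list median was 0.532 in CBFb_KD and 0.039 in Ring1b_KD. Ifit1, which binds foreign RNA, was at 10.38, 11.01 and 10.76 in CBFb_KD, at 8.91, 9.13 and 8.41 in Ring1b_KD and at 8.50, 8.79 and 8.03 in Control. Its CBFb_KD arrays were all above Control, while Ring1b_KD overlapped Control, and the difference was 1.90 (limma adjusted p = 6.15e-05). Irf7 (1.34 after CBFb and 0.07 after Ring1b knockdown), Oasl1 (0.99 after CBFb and 0.25 after Ring1b knockdown) and the RNA sensor Ddx58 (0.87 after CBFb and 0.42 after Ring1b knockdown) rose unequally too. The count of 12 became 5 without Control array 3, 8 without Control array 2, 21 without Ring1b_KD array 3, 19 with array weights and 0 with the 6 knockdown arrays as a single group.

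Because both knockdowns carried a hairpin and Control did not, 21 genes of RNA sensing and hairpin processing were described. In the pooled contrast 5 were higher and 1 lower, with a median log2 change of 0.037, where 5.82% of all genes were higher and 6.79% lower. Tarbp2, a partner of Dicer, was at 9.47, 9.60 and 9.53 in CBFb_KD, at 9.20, 9.02 and 9.09 in Ring1b_KD and at 8.71, 8.72 and 8.68 in Control (log2 fold change 0.61 with SE 0.07, limma adjusted p = 0.0002). It rose more in CBFb_KD (difference 0.43, limma adjusted p = 0.00204). Ago1, an Argonaute, was at 10.15, 10.27 and 10.27 in CBFb_KD, at 10.40, 10.49 and 10.38 in Ring1b_KD and at 9.78, 9.85 and 9.74 in Control (log2 fold change 0.53 with SE 0.06, limma adjusted p = 0.000337), with all knockdown arrays above Control. Mavs, the adaptor of cytoplasmic RNA sensors, rose by 0.52 (0.72 after CBFb and 0.33 after Ring1b knockdown). Tnrc6a, an Argonaute partner, rose by 0.46 (0.27 after CBFb and 0.66 after Ring1b knockdown). Both differed between the knockdowns by limma, in opposite orders. The other probe sets of Tarbp2 (0.13) and Mavs (0.27) were dimmer and not called, with -0.15 and -0.08 after Ring1b knockdown. The decrease was of Drosha, the nuclear nuclease of microRNA precursors, with -0.28 after CBFb and -0.46 after Ring1b knockdown, and Prkra, another Dicer partner, rose by 0.43 (both named after their values were seen). Dicer1 (-0.14), Dgcr8 (-0.03) and Ago2 (0.14) were not called. Whether a hairpin moved any of these genes was not tested.

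Lysosome and autophagy genes had 12 higher and 1 lower of 26 and a median log2 change of 0.223, where 5.82% of all genes were higher, but this count depended on the scaling. It was 4 higher and 3 lower with the values as deposited, and 3 higher and 3 lower with the arrays centred on their medians. Sqstm1, an autophagy receptor, was at 11.71, 11.75 and 11.86 in CBFb_KD, at 11.61, 11.64 and 11.67 in Ring1b_KD and at 11.22, 11.15 and 11.27 in Control (log2 fold change 0.49 with SE 0.06, limma adjusted p = 0.000336), and rose in both (0.56 after CBFb and 0.43 after Ring1b knockdown). Wipi1 (0.79 after CBFb and 0.39 after Ring1b knockdown) and Map1lc3b (0.17 after CBFb and 0.47 after Ring1b knockdown), both of autophagosome formation, rose unequally, and Lamp2, a lysosomal membrane protein, rose by 0.47 (limma adjusted p = 0.0114). Without Control array 3 the list had 4 higher members, and with the knockdown arrays as a single group 1. Heme synthesis and breakdown genes had 4 higher of 13 (30.8%), with a median of 0.160, and 0 higher without Control array 3. Blvrb, which reduces biliverdin, had log2 fold changes of 0.36 after CBFb and 0.36 after Ring1b knockdown, Fech 0.36 after CBFb and 0.21 after Ring1b knockdown and Urod 0.30 after CBFb and 0.15 after Ring1b knockdown, whose pooled call was lost in 11 of 18 settings, whereas Alas2 rose in CBFb_KD (1.61) and stood at 0.07 in Ring1b_KD.

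Genes of platelet function changed mainly in CBFb_KD. Of 43 megakaryocyte and platelet genes 9 were higher and 0 lower, and 2 were common, Rab27b and Rgs18 (log2 fold changes of 0.64 after CBFb and 0.81 after Ring1b knockdown, named after its values were seen). Higher members were 20.9% of the list, against 5.82% of all genes, and common members 4.65%, against 5.82%. The list median was 0.316 in CBFb_KD and 0.023 in Ring1b_KD. Treml1, a receptor of platelet granules, was at 9.71, 9.73 and 9.89 in CBFb_KD, at 8.08, 8.14 and 7.86 in Ring1b_KD and at 8.11, 7.79 and 7.97 in Control. Its Ring1b_KD arrays overlapped Control, and the knockdowns differed by 1.75 (limma adjusted p = 5.18e-07). Gp5 (1.68 after CBFb and 0.04 after Ring1b knockdown) had like values, and Dok2, an adaptor of platelet signalling, rose unequally (1.61 after CBFb and 0.54 after Ring1b knockdown). The count of 9 became 15 without Ring1b_KD array 3 and 1 with the 6 knockdown arrays as a single group. The markers Pf4 (0.09), Gata1 (0.10) and Itga2b (0.60) were not called in the pooled contrast.

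Of 22 erythroid genes 5 were higher and 1 lower (27.3%, against 12.6% of all genes), and the common member was the decrease (4.55%, against 5.82%). Car1, a carbonic anhydrase, was at 12.68, 12.63 and 12.52 in CBFb_KD, at 12.83, 12.69 and 12.56 in Ring1b_KD and at 13.46, 13.33 and 13.20 in Control (log2 fold change -0.68 with SE 0.07, limma adjusted p = 0.000158). Ank1 (0.79 after CBFb and 0.11 after Ring1b knockdown) and Epb42 (1.10 after CBFb and 0.41 after Ring1b knockdown), of the red cell membrane skeleton, rose more in CBFb_KD. Among 14 mast cell and basophil markers 2 rose and 1 fell, all common (21.4%, against 12.6% called and 5.82% common among all genes). These were Hdc and Ms4a2, described above, and Srgn, the granule proteoglycan (0.28 after CBFb and 0.30 after Ring1b knockdown). Of 26 granulocyte and monocyte markers, Prtn3 rose in CBFb_KD (1.42 after CBFb and -0.17 after Ring1b knockdown) and Ctsg fell (7.69% called). The lymphoid list had 1 call of 21 (4.76%), Gzmb, and the fibroblast and endothelial list 1 of 18 (5.56%), Eng (0.80 after CBFb and 0.21 after Ring1b knockdown). The mean level over the mast cell list was 8.389 to 8.491 in the CBFb_KD arrays, 8.429 to 8.665 in Ring1b_KD and 8.353 to 8.602 in Control, so the groups overlapped. Over the granulocyte and monocyte list it was 6.593 to 6.688, 6.563 to 6.633 and 6.571 to 6.65, and these overlapped too. Over the lymphoid list Ring1b_KD (6.767 to 6.791) lay above Control (6.621 to 6.657), and over the fibroblast and endothelial list CBFb_KD (6.545 to 6.602) lay above Control (6.442 to 6.506). In a recalculation chosen after these values were seen, the lymphoid list without Gzmb was at 6.508 to 6.543 in Ring1b_KD and 6.49 to 6.552 in Control. Without Eng and Tie1, which stood at 0.80 and 0.91 in CBFb_KD, the fibroblast and endothelial list was at 6.169 to 6.269 in CBFb_KD and 6.198 to 6.223 in Control, and both pairs of ranges overlapped. The part of other cell types in the pooled response was not tested.

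Phorbol ester early response genes were mixed, with 6 higher and 2 lower of 29 (27.6%, against 12.6% of all genes) and a median log2 change of 0.082, and 6 of the 8 called were common. Besides Fosl2 and Myc, Ier3, an early gene that restrains cell death, had log2 fold changes of 0.52 after CBFb and 0.47 after Ring1b knockdown. Ier2 (0.33 after CBFb and 0.51 after Ring1b knockdown) and Dusp2, a phosphatase of MAP kinases (0.35 after CBFb and 0.34 after Ring1b knockdown), rose in both (named after their values were seen). Nr4a2, an orphan nuclear receptor of this class, was at 8.83, 10.77 and 9.13 in CBFb_KD, at 9.66, 9.89 and 9.43 in Ring1b_KD and at 7.14, 9.05 and 7.12 in Control, and rose by 1.85 (limma adjusted p = 0.0137, named after its values were seen). Control array 2, at 9.05, lay above CBFb_KD array 1, so it was not common. Phlda1 (1.58 after CBFb and -0.39 after Ring1b knockdown) had changes of opposite sign, of which the Ring1b_KD one was not called (limma adjusted p = 0.0652). Fos (0.74), Egr1 (-0.61) and Jun (0.08) were not called. Among 26 genes of the response to ER stress and amino acid shortage, 4 were higher and 3 lower (26.9%), and 2 higher and 6 lower with the arrays centred on their medians. Ppp1r15a, a subunit that ends the block on translation under stress, was at 10.11, 10.61 and 10.38 in CBFb_KD, at 10.01, 9.96 and 9.83 in Ring1b_KD and at 9.27, 9.53 and 9.38 in Control (log2 fold change 0.76 with SE 0.10, limma adjusted p = 0.000602), and Dnajb9, a chaperone of the same compartment, rose by 0.74.

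Among the partners of the targeted genes, Runx1 (1.36 after CBFb and 0.26 after Ring1b knockdown) and Bmi1 (0.01 after CBFb and -0.90 after Ring1b knockdown) were called in the pooled contrast, and both differed between the knockdowns by limma. Runx3 (-0.15, limma adjusted p = 0.331) and Ring1 (-0.17, limma adjusted p = 0.264) were not. A somewhat dimmer Runx3 probe set gave -0.67 and was called (limma adjusted p = 0.00132 over all probe sets). Its changes were -0.56 after CBFb and -0.78 after Ring1b knockdown. None of 18 PRC1 genes was common, where 5.82% of all genes were. Of those called, Pcgf3 (0.21 after CBFb and 0.44 after Ring1b knockdown) and Phc3 (0.49 after CBFb and 0.31 after Ring1b knockdown) rose, and Rnf2 and Bmi1 fell. Of 11 PRC2 genes, Phf1, which helps to bring the complex to chromatin, rose in both (0.56 after CBFb and 0.48 after Ring1b knockdown), Aebp2 fell in both (-0.26 after CBFb and -0.34 after Ring1b knockdown) and Suz12 fell more in CBFb_KD (-0.60 after CBFb and -0.20 after Ring1b knockdown). In the core binding factor list, Cbfa2t3, a corepressor of the ETO family, had log2 fold changes of 0.28 after CBFb and 0.39 after Ring1b knockdown. Its pooled call was lost in 10 of 18 settings. The dimmer Cbfa2t3 probe sets had no pooled call and differed in direction after Ring1b knockdown (0.46, -0.52 and -0.15). The mean of its probe sets gave a pooled 0.117 (limma adjusted p = 0.477). No Hox gene of 31 was called in the pooled contrast by limma, against 12.6% of all genes, with 2 at an unadjusted p under 0.05. In Ring1b_KD 2 of the 31 were higher and 1 lower, where 5.66% of all genes were higher and 6.57% lower. Hoxa5 (-0.29), Hoxa11 (-0.42) and Hoxd13 (0.38) differed between the knockdowns by limma (CBFb_KD minus Ring1b_KD, named after their values were seen). Of all genes, 19.4% differed in that test. Of 43 developmental regulators 1 was called (2.33%), Msx2 (-0.30 after CBFb and -0.24 after Ring1b knockdown), and its call was lost in 10 settings. The median level in Control was 5.6 over the Hox list and 5.83 over the developmental list, against 7.41 over all genes. Changes in such dim genes may be missed.

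Transcription factors of blood cells were called in 5 of 27 cases (18.5%, against 12.6% of all genes), 3 higher and 2 lower. Tal1, a core factor of megakaryocyte and erythroid genes, was at 12.46, 12.35 and 12.47 in CBFb_KD, at 12.26, 12.46 and 11.97 in Ring1b_KD and at 11.87, 11.85 and 11.95 in Control, and was the common member (log2 fold change 0.44 with SE 0.09, limma adjusted p = 0.00597). Its call was lost when the 6 knockdown arrays were treated as a single group. Lyl1, a related factor, was at 11.64, 11.30 and 11.68 in CBFb_KD, at 10.34, 10.12 and 9.94 in Ring1b_KD and at 9.54, 9.21 and 9.21 in Control. It rose in both, but more in CBFb_KD (difference 1.41, limma adjusted p = 1.43e-05). Tcf3, the E protein partner of these factors, had log2 fold changes of -0.03 after CBFb and -1.08 after Ring1b knockdown, and Ikzf1 of -0.70 after CBFb and -0.25 after Ring1b knockdown, each unequal by limma.

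The genes with the largest differences between the knockdowns include some of the largest pooled values. Tnfrsf9, a costimulatory receptor of lymphocytes, was at 9.35, 10.26 and 9.58 in CBFb_KD, at 12.79, 12.32 and 12.79 in Ring1b_KD and at 9.02, 9.27 and 8.98 in Control. Its pooled change of 2.09 was mostly that of Ring1b_KD (0.64 after CBFb and 3.54 after Ring1b knockdown). F13a1, the gene of a clotting factor subunit carried by platelets, was at 9.18, 9.83 and 9.51 in CBFb_KD, at 7.03, 7.07 and 6.57 in Ring1b_KD and at 6.88, 6.39 and 5.95 in Control, and its pooled change of 1.79 was mostly that of CBFb_KD (3.10 after CBFb and 0.48 after Ring1b knockdown). Csf2rb, the beta chain shared by several cytokine receptors, rose in both (3.35 after CBFb and 1.15 after Ring1b knockdown) and had the largest pooled change of any gene (2.25, limma adjusted p = 0.000355). Its near-identical paralog Csf2rb2 (2.76 after CBFb and 0.31 after Ring1b knockdown) may share signal with it, so both values are uncertain. Cish, a feedback inhibitor of cytokine receptors (1.48 after CBFb and 0.42 after Ring1b knockdown), and Sh2b3 (0.73 after CBFb and 0.07 after Ring1b knockdown) rose more in CBFb_KD, and the pooled call of Sh2b3 was lost in 11 of 18 settings. Glipr2 (2.39 after CBFb and -0.20 after Ring1b knockdown) and Exoc3l4 (2.31 after CBFb and -0.39 after Ring1b knockdown) rose in CBFb_KD, and Crim1 (-0.26 after CBFb and -1.95 after Ring1b knockdown), Mast4 (0.38 after CBFb and -1.32 after Ring1b knockdown) and Pi4k2b (0.29 after CBFb and -1.35 after Ring1b knockdown) fell in Ring1b_KD. The Mast4 fall was that of its brightest probe set alone. The dimmer Mast4 probe sets changed by -0.20 to 0.20 after Ring1b knockdown, and none had a pooled call. The mean of all Mast4 probe sets gave a pooled -0.036 (limma adjusted p = 0.77), and the pooled call was lost in 6 of 18 settings.

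In some genes the changes were called in each knockdown and went opposite ways, and the pooled mean then describes neither. Gzmb, which encodes the protease granzyme B, was at 7.39, 7.61 and 7.35 in CBFb_KD, at 11.75, 11.27 and 11.96 in Ring1b_KD and at 8.91, 9.35 and 8.0 in Control. Ring1b_KD was above and CBFb_KD below all Control arrays, yet the pooled value was 0.80 (limma adjusted p = 0.0361). That call was lost in 12 of 18 settings, and the value was 0.423 without Control array 3. Kcne3, a potassium channel subunit (1.76 after CBFb and -0.52 after Ring1b knockdown), and Tent5c, a poly(A) polymerase (1.81 after CBFb and -0.77 after Ring1b knockdown), had pooled calls as well. Far2 (-1.26 after CBFb and 0.96 after Ring1b knockdown) and Plek2, a pleckstrin paralog (0.82 after CBFb and -1.07 after Ring1b knockdown), had pooled values of -0.15 and -0.12 and were not called.

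Among the lists not yet described, pooled calls ran from 0% (antigen presentation) to 33.3% (glycolysis and hypoxia), against 12.6% of all genes. Adhesion, actomyosin and matrix genes had 8 higher and 1 lower of 34 (26.5%), 1 of them common, with 3 higher without Control array 3 and 4 with median centring. Itgal (0.83 after CBFb and 0.30 after Ring1b knockdown), Itgb2 (2.03 after CBFb and -0.06 after Ring1b knockdown) and Itga4 (0.69 after CBFb and -0.08 after Ring1b knockdown), integrin chains of leukocytes, and the calponin gene Cnn2 (0.89 after CBFb and 0.44 after Ring1b knockdown) rose mainly in CBFb_KD. Of 21 glycolysis and hypoxia genes 4 were higher and 3 lower. Pfkl, the liver-type phosphofructokinase, fell in both (-0.68 after CBFb and -0.45 after Ring1b knockdown), Pfkp fell more in Ring1b_KD (-0.46 after CBFb and -1.13 after Ring1b knockdown), and Hk1 (0.43 after CBFb and 0.11 after Ring1b knockdown) and Pkm (0.59 after CBFb and 0.10 after Ring1b knockdown) rose mostly in CBFb_KD. Cytokine receptor and signalling genes had 4 higher of 23 (17.4%), 0 of them common. Oxidative phosphorylation had 2 calls of 24 (8.33%), Uqcrc2 (0.15 after CBFb and 0.43 after Ring1b knockdown) and Ndufv2 (-0.28 after CBFb and -0.16 after Ring1b knockdown). Cholesterol and fatty acid synthesis had 1 of 22 (4.55%), Fasn (-0.55 after CBFb and -0.26 after Ring1b knockdown). Antigen presentation had 0 of 16 pooled calls by limma, with 3 at an unadjusted p under 0.05. Against Control in Ring1b_KD alone, 5 of the 16 were lower, where 6.57% of all genes were. Among them were the immunoproteasome genes Psmb8 (-0.44), Psmb9 (-0.31) and Psmb10 (-0.61), named after their values were seen. Between the knockdowns 8 of the 16 differed, 7 of them higher in CBFb_KD, where 19.4% of all genes differed.

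**Figure D4:**
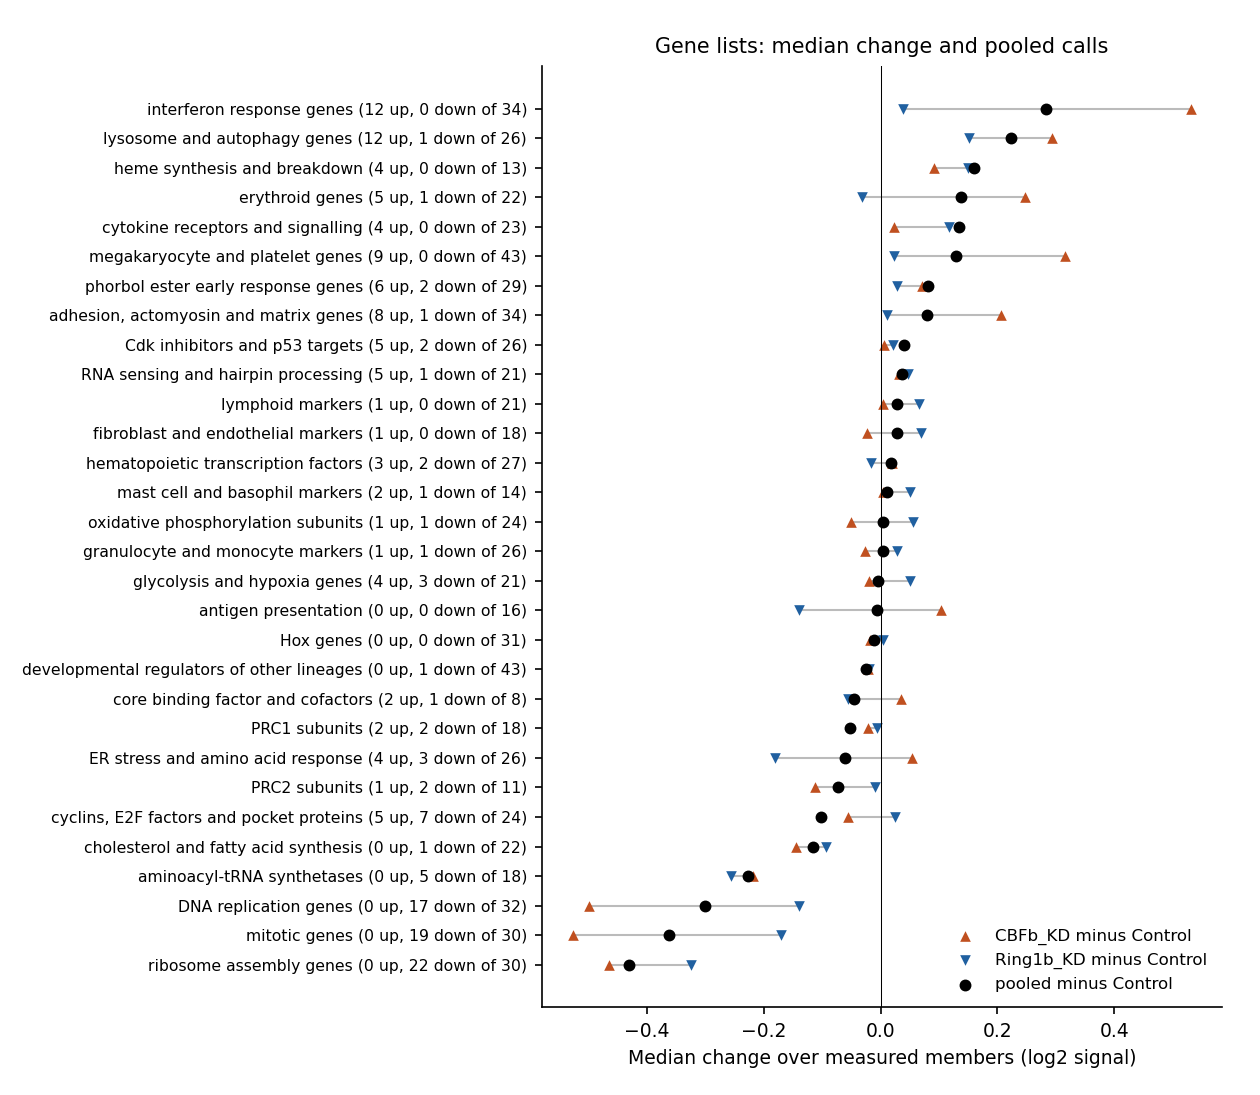
Median log2 change of the measured members of each gene list in the pooled contrast, CBFb_KD and Ring1b_KD, all against the same 3 Control arrays, with the pooled calls of the list in its label. Aminoacyl-tRNA synthetase genes have medians close together in both knockdowns. Ribosome assembly genes lie below 0 in both, at -0.465 in CBFb_KD and -0.324 in Ring1b_KD. Interferon, mitotic, replication and platelet genes lie farther from 0 in CBFb_KD than in Ring1b_KD.

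The number of calls depended on single Control arrays, and the share of increases depended on the scaling. Leaving out Control array 3 left 1003 calls, 983 of them among the 2293, and Control array 2 left 1376, while leaving out any other array left 1546 to 2601. Increases made up 46.1% of the pooled calls, 37.1% with the values as deposited and 24.4% with the arrays centred on their medians. Of the common genes 42% were higher, against 27.4% and 15.2%. When the 6 knockdown arrays formed a single group, so that differences between the knockdowns counted as spread, 450 genes were called, and all 450 were among the 2293.

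**Figure D5:**
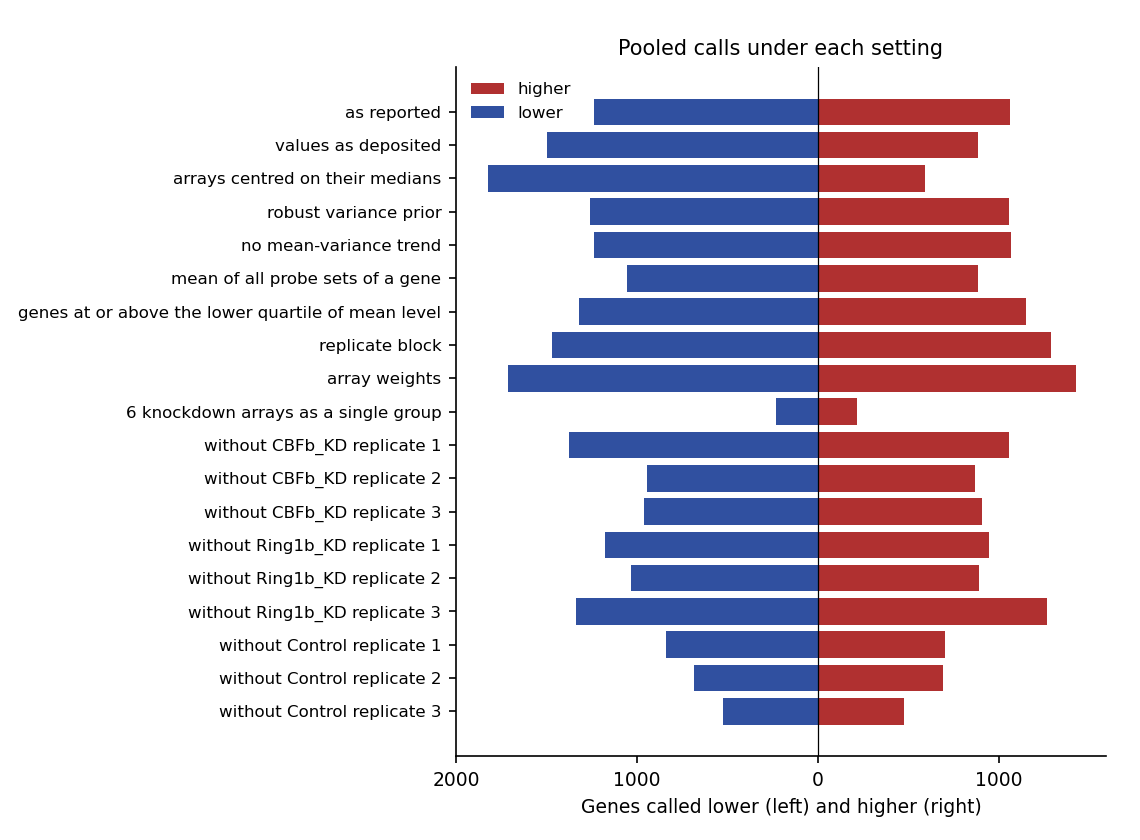
Genes called lower (left) and higher (right) in the pooled contrast as reported and in each of 18 other settings, by limma at an adjusted p under 0.05. The count as reported is 1235 lower and 1058 higher, and the smallest is 235 and 215 with the 6 knockdown arrays as a single group.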

How the data were processed

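The 9 arrays held 3 each of the knockdowns and of the empty vector. As the labels' protocols state, cRNA was made from an oligo-dT primer by in vitro transcription. The deposited values are log2 signals of 45101 probe sets, judged from their range of 3.227 to 15.355. How probe signals were corrected and summarised, and with which software, was not given in the sources used here. Array medians spanned 0.137, so the values were quantile normalized, and the 64 control probe sets were then left out. A platform table gave 1 symbol to 34945 probe sets, several to 932 and none to 9160. Of the probe sets with 1 symbol, the brightest on average stood for its gene.

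Group means were fitted to all arrays in limma 3.58.1 under R 4.3.3 (lmFit, then eBayes with a mean-variance trend). Tests were two-sided, with Benjamini-Hochberg adjustment over 18193 genes. The contrasts were (CBFb_KD + Ring1b_KD)/2 minus Control, each knockdown minus Control, and CBFb_KD minus Ring1b_KD. The 95% intervals come from the same fit. The fit was tested on simulated data. The 30 gene lists held 773 symbols, 722 measured, and were described by counts and medians only.

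Named genes were Cbfb, Rnf2, Runx1, Runx3, Ring1 and Bmi1, and 15 common genes per direction with the largest smaller change, at or above the median gene (7.42) and with an assigned name. To these came the 4 called members of smallest adjusted p in each list (fewer where fewer were called), the 5 per direction with the largest knockdown difference, and the 5 of opposite sign. Members and lists were chosen with earlier results of these data known. Alternatives were the values as deposited, median centring, other variance priors, the mean of probe sets, a filter on dim genes, the replicate block, array weights, a single knockdown group, a stricter common rule and leaving out each array. 1 gene is not reported here.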

Additional observations from a re-analysis of the deposited data

Results flagged for a closer look

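The test between the knockdowns, which does not use Control, called 77 of the 127 named genes (limma adjusted p from 5.57e-10 to 0.0488). Over all 18193 genes the share was 19.4%. Some named genes were chosen for a large difference between the knockdowns, so the count of 77 does not describe genes at large. The pooled values of the 77 are means of unequal changes. The values here are CBFb_KD minus Ring1b_KD on the log2 scale. Common genes with a difference were Ccrl2 (0.84), Ctla2b (0.76), Mest (0.58), Cd200r1 (0.51), Nop16 (0.49), Ppp1r15a (0.44), Dnajb9 (0.43), Setd6 (0.42), Sla2 (0.41), Mcm4 (-0.28), Myc (-0.28), E2f8 (-0.50), Spns3 (-0.68), Dgat1 (-0.70) and St8sia4 (-1.16). The targeted genes differed, with Cbfb at -3.04 and Rnf2 at 1.56. Runx1 (1.09), Bmi1 (0.91) and the PRC2 gene Suz12 (-0.40) differed too. The partner genes Runx3 (-0.08) and Ring1 (0.14) did not (limma adjusted p = 0.625 and 0.385).

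The genes of largest difference were Exoc3l4 (2.70), F13a1 (2.62), Glipr2 (2.60), Tent5c (2.57), Csf2rb2 (2.45), Kcne3 (2.28), Csf2rb (2.20), Itgb2 (2.09), Phlda1 (1.97), Ifit1 (1.90), Plek2 (1.89), Far2 (-2.21), Tnfrsf9 (-2.90) and Gzmb (-4.21). Among blood lineage genes the values were 1.75 for Treml1, 1.64 for Gp5, 1.59 for Prtn3, 1.55 for Alas2, 1.41 for Lyl1, 1.07 for Dok2, 1.05 for Tcf3, 0.69 for Epb42, 0.68 for Ank1, 0.59 for Eng and -0.45 for Ikzf1. Crim1 and Mast4 were each at 1.69, and Pi4k2b at 1.64. Signalling and adhesion genes were at 1.06 (Cish), 0.77 (Itga4), 0.66 (Sh2b3), 0.53 (Itgal) and 0.45 (Cnn2). Interferon and RNA sensing genes were at 1.28 (Irf7), 0.74 (Oasl1), 0.45 (Ddx58), 0.43 (Tarbp2), 0.40 (Mavs) and -0.39 (Tnrc6a).

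Cell cycle genes were at 1.39 (Cdkn2b), 1.21 (Trp53inp1), -0.28 (Mcm4), -0.37 (Nuf2), -0.38 (Mcm6), -0.47 (Cenpe), -0.50 (Cdkn1b), -0.53 (Mad2l1), -0.53 (Mcm7), -0.54 (Uhrf1), -0.77 (Zmat3) and -0.80 (Cdk6). Metabolic and autophagy genes were at 0.67 (Pfkp), 0.49 (Mthfd2), 0.48 (Pkm), 0.40 (Wipi1), 0.32 (Hk1), -0.29 (Uqcrc2) and -0.30 (Map1lc3b).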

How the results depend on the processing

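With the 6 knockdown arrays as a single group, 450 genes were called, 215 higher and 235 lower. Median centring gave 590 higher genes, with 175 common higher and 980 common lower. Requiring the smaller change to be at least 0.75 times the larger left 507 common genes, 229 higher and 278 lower. Leaving out single arrays gave 1003 to 2601 pooled calls, 476 to 1265 higher and 527 to 1378 lower, and 555 to 1342 common genes, 249 to 593 higher and 306 to 749 lower. The same omissions gave 1751 to 2995 calls for CBFb_KD against Control and 1139 to 2365 for Ring1b_KD against Control. The lowest of all these counts came without Control array 3. Each leave-out fit pools the spread of all groups. Same-numbered arrays of CBFb_KD and Control had deviation correlations of 0.203, 0.377 and 0.2, while pairs with Ring1b_KD ran from -0.068 to 0.153, so the numbers were not taken as pairs across the 3 groups. The replicate block gave 2759 pooled calls and 1128 common genes, and 3142 calls for CBFb_KD against Control, where 2798 were called without it. Of the 127 named genes none reversed in any setting, 49 kept their side of the threshold in all, 77 lost their call in at least 1 setting and Runx3 gained one with the mean of probe sets. With 3 arrays a group, small changes such as those of dim genes may be missed.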
